A study of Mus musculus with 21 samples.

Results

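Inflammatory monocytes were the cells that carried this label in the deposited Harmony annotation of a single-cell RNA-seq time course of muscle regeneration, 7323 of 87822 cells (8.34%) in 21 mice. The mice were female C57Bl/6J animals of 20 months. Tibialis anterior muscle was taken from 4 uninjured mice and at 1 (4 mice), 2 (3 mice), 3.5 (4 mice), 5 (3 mice) and 7 days (3 mice) post-injury (dpi), the injury being an injection of notexin, a snake venom phospholipase that destroys myofibres. Each sample was a 10x Chromium suspension of digested whole muscle, and mice were injured and analysed individually. Both tibialis anterior muscles of an injured mouse were injected, and whether they were pooled is not stated in the sources used here. Each sample was taken as 1 mouse. Mice of several time points could be collected on 1 day, but the labels used here do not give the days, so their part in the results was not tested. The deposited tables give each cell's labels and summary measures, so the marker genes Ccr2 and Ly6c2 were not measured here and the label could not be checked against them.

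Inflammatory monocytes, also called classical monocytes, express Ly6C at a high level and carry the chemokine receptor CCR2, which draws them from the blood into damaged tissue. In injured muscle they arrive early, together with neutrophils, take up debris and release cytokines, and they can differentiate into macrophages. Macrophages named M2 are commonly linked with repair, and the Harmony annotation splits them by the fractalkine receptor gene Cx3cr1. The patrolling monocytes of this annotation were defined by the study as high in the fatty acid binding protein gene Fabp5 and negative for Cx3cr1 and Ly6c2, unlike the Cx3cr1-positive blood monocytes that usually bear the name.

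Samples held 974 to 10556 cells and 5602460 to 70730200 UMIs, of which inflammatory monocytes held 52322 to 9665800 UMIs. In the uninjured samples 25.3 to 49.5% of the called barcodes remained in the deposited tables, against 54.3 to 83.2% after injury. Of 7318 distinct barcodes among the inflammatory monocytes, 5 occurred as this type in more than 1 mouse. Counting cells of any type, 171 were seen in another mouse. Under 750 genes were detected in 1.502% of inflammatory monocytes and in 6.42% of all cells.

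Inflammatory monocytes were scarce in uninjured muscle, were most frequent at 1 dpi and then became rarer. In the uninjured mice A, B, C and D they numbered 7, 33, 16 and 6 cells, or 0.309%, 0.967%, 0.318% and 0.616% of all cells of the mouse. At 1 dpi they made up 20.0%, 12.03%, 19.2% and 23.0%. The shares were 14.1%, 13.6% and 7.57% at 2 dpi, followed by 6.64%, 7.22%, 10.1% and 9.65% at 3.5 dpi. At 5 dpi they were 6.58%, 3.38% and 3.35%, and at 7 dpi 1.54%, 1.86% and 3.27%. Every injured mouse lay above every uninjured mouse, and every mouse at 5 dpi lay below every mouse at 3.5 dpi, while 1 and 2 dpi overlapped through mouse 1 dpi B.

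**Figure D1:**
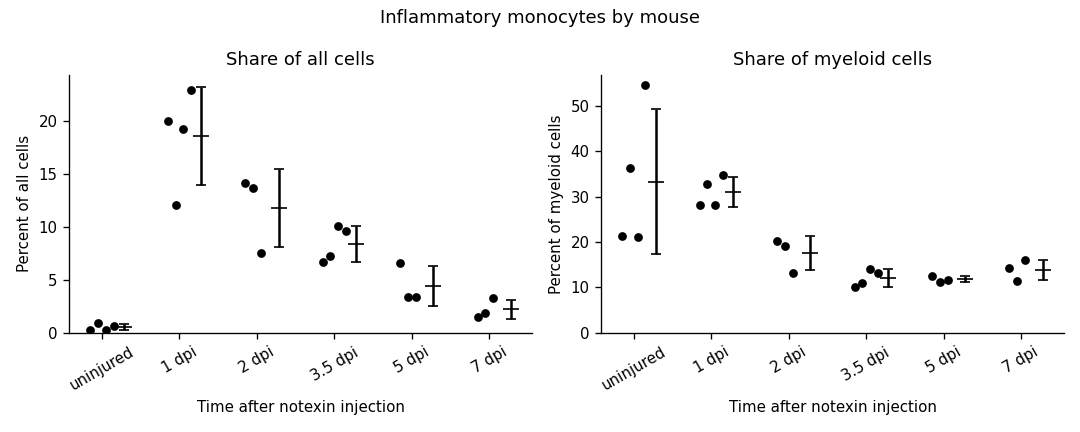
Inflammatory monocytes as a percent of all cells (left) and of myeloid cells (right) in each mouse (points), by time after notexin injection, with the mean and SD beside them. The mean share of all cells was 0.552% in uninjured muscle, 18.6% at 1 dpi and 2.22% at 7 dpi, and the share of myeloid cells was lowest between 3.5 and 7 dpi.

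The mean was 0.552% ± 0.311 (SD, n = 4) in uninjured muscle and reached 18.6% ± 4.64 (n = 4) a day after injury. From 2 dpi on, the successive means were 11.8% ± 3.65 (n = 3), 8.40% ± 1.71 (n = 4), 4.44% ± 1.86 (n = 3) and 2.22% ± 0.919 (n = 3). The share changed over the 6 time points (permutation F test with 100000 resamples, F = 36.6, adjusted p = 4.6e-05 over all 23 Harmony types, which rests on the smallest p the resampling can give). This was the fourth largest F of the 23 types, 78.3% of which passed the test. The mean was 33.6 times the uninjured mean at 1 dpi, then 21.3, 15.2 and 8.03 times at the times that followed, and still 4.03 times at 7 dpi. A share moves with every other cell type, and numbers of cells per muscle were not measured here.

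Each injured time point against uninjured gave the smallest p the exact two-sided permutation test allows (0.0286), but with adjustment over all types and contrasts the value was 0.0768 in all 5. Mice of the 2 groups did not overlap for 43.5%, 65.2%, 82.6%, 60.9% and 52.2% of the types in these contrasts, in the order of time. Between neighbouring times the mean differed by -6.78 points from 1 to 2 dpi (exact permutation p = 0.114), by -3.38 points in the next step (p = 0.143), by -3.96 points from 3.5 to 5 dpi (p = 0.0571) and by -2.21 points in the last (exact p = 0.1, the smallest 3 mice against 3 allow). In these steps 13%, 26.1%, 34.8% and 39.1% of the types did not overlap. None of the 9 contrasts passed adjustment in the permutation tests and 5 had an unadjusted p under 0.05. On the numbers of cells, edgeR's quasi-likelihood test with TMM called 6 of the 9, the 5 injured times as higher than uninjured (adjusted p from 1.21e-09 at 1 dpi to 0.0373 at 7 dpi) and 5 dpi as lower than 3.5 dpi (adjusted p = 0.00198). Without TMM it called the 5 contrasts with uninjured.

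The type was the most abundant of all 23 in 3 of the 4 mice at 1 dpi and the third in the other, mouse B. That mouse had 36.7% myeloid cells and 47.7% of its reads in cells, against 66.2 to 71.0% myeloid cells and 79 to 91.8% of reads in cells in the other 3. The part of these values in its lower share was not tested. At 2 dpi patrolling monocytes were the largest type in each of the 3 mice, with inflammatory monocytes at rank 2 in mice A and B and at rank 5 in mouse C. By 7 dpi inflammatory monocytes ranked 10th to 17th.

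Among myeloid cells the course was different in shape. Inflammatory monocytes were 33.3% ± 15.9 (SD, n = 4) of the myeloid cells in uninjured muscle and 30.9% ± 3.31 (n = 4) a day after injury. The mean was 17.5% ± 3.76 (n = 3) at 2 dpi and lay between 11.8% and 13.9% from then on. The share of myeloid cells changed over time (permutation F test, adjusted p = 0.00147 over 7 myeloid types, of which 100% passed). The uninjured samples held 11 to 91 myeloid cells, and their shares spread from 21.1 to 54.5%. Without them, among injured mice only, the adjusted p was 0.000105.

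The type was also set against 1 other myeloid type at a time, by Harmony labels only. In every mouse patrolling monocytes outnumbered it at 2 dpi and both kinds of M2 macrophages did so at 3.5 dpi. Dendritic cells outnumbered it in every mouse at 5 dpi. Other deposited labels, described below, drew the borders between these types elsewhere, and the pairs were not computed with them. Inflammatory monocytes were 65.3% ± 5.91 (SD, n = 4) of themselves and patrolling monocytes at 1 dpi, against 31.9% ± 6.37 (n = 3) on the next day. The mean was lowest at 3.5 dpi, 24.7% ± 3.85 (n = 4), and was 47.5% ± 8.69 (n = 3) at the end. With Cx3cr1_hi M2 macrophages the values were 77.9% ± 0.957 at 1 dpi, 60.7% ± 9.85 at 2 dpi and 37.1% ± 4.06 at 3.5 dpi. With Cx3cr1_lo M2 macrophages they were 68.9% ± 2.52, 49.2% ± 6.05 and 38.4% ± 5.61 at the same times. At 2 dpi this pair was near equal, with more inflammatory monocytes in mice A and B and fewer in mouse C. Dendritic cells, which present antigen, were outnumbered until 3.5 dpi (68.1% ± 4.20 inflammatory monocytes in the pair) and not at 5 dpi (41.9% ± 2.78). These 4 pairs changed over time (permutation F tests, adjusted p from 3e-05 to 0.00133 over 6 pairs).

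Neutrophils, the granulocytes that enter injured muscle first, went the other way. Inflammatory monocytes were 62.3% ± 6.28 (SD, n = 4) of this pair at 1 dpi and 89.7% ± 1.60 (n = 4) at 3.5 dpi (permutation F test, adjusted p = 0.0171). For the pair with Cxcl10+ monocytes, named for an interferon-induced chemokine, the share was 87.6% ± 1.27 at 1 dpi and 69.5% ± 10.9 at 7 dpi, and the test was not passed (adjusted p = 0.0766). These pairs were chosen after the data had been seen.

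**Figure D2:**
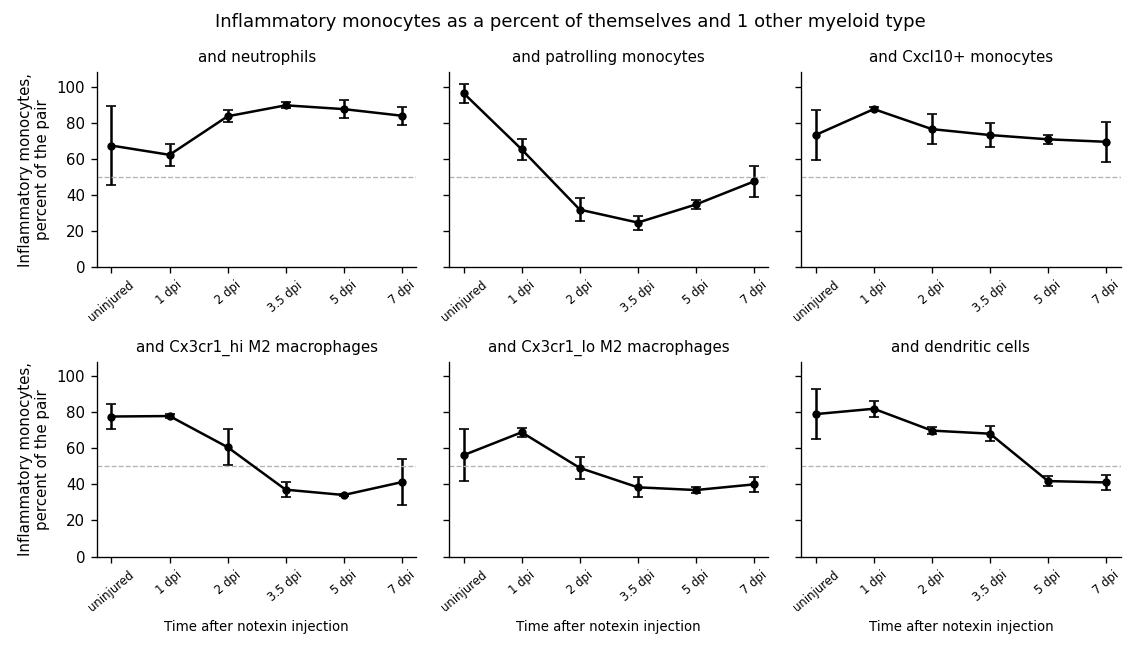
Inflammatory monocytes as a percent of themselves and 1 other myeloid type (mean and SD over mice), by time after notexin injection, with the dashed line at equal numbers. All types are by the Harmony label. The mean crossed that line between 1 and 2 dpi for patrolling monocytes, between 2 and 3.5 dpi for Cx3cr1_hi M2 macrophages and between 3.5 and 5 dpi for dendritic cells, and with Cx3cr1_lo M2 macrophages it was near the line (49.2%) at 2 dpi.

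The deposited tables also carry labels from 2 other integration methods, BBKNN and Scanorama, which merge samples in another way before clustering. Of the 7323 Harmony inflammatory monocytes, 69.9% were called inflammatory monocyte by BBKNN, 68.2% by Scanorama and 64.9% by both. Neither did so for 26.8%.

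How often the labels of these methods matched that of Harmony depended on the time point. BBKNN gave the same label to 98.6%, 100%, 98.7% and 99.4% of the cells in the mice at 1 dpi. It did so for 82.7%, 81.3% and 51.5% at 2 dpi and for 30.3%, 48.9%, 23.1% and 39.6% at 3.5 dpi. The values were 26.3%, 17.5% and 31.5% at 5 dpi and 51.1%, 26.6% and 68.9% at 7 dpi. In the 2 uninjured mice with at least 10 of the cells, B and C, it was 72.7% and 81.3%. No mouse at 3.5 or 5 dpi reached any mouse at 1 or 2 dpi.

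For Scanorama the mean match was 97.5% ± 2.22 (SD, n = 4) at 1 dpi and 76.7% ± 11.98 (n = 3) on the next day. It was 29.9% ± 11.5 (n = 4) at 3.5 dpi, then 21.8% ± 5.75 (n = 3) and 46.0% ± 24.5 (n = 3). Both matches changed over time (permutation F tests over 19 mice, adjusted p = 2e-05 for each method). How widely a method used the label changed too. BBKNN gave it to a mean of 33.0% of all cells at 1 dpi and 3.29% at 3.5 dpi, and Scanorama to 41.4% and 3.12%. The part of this in the match was not tested.

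A further deposited set of labels, named prefilter, is coarser, with 21 labels, 1 class of M2 macrophages and no Cxcl10+ class. The authors integrated the cells once, removed a noisy cluster and integrated again, but which method made the prefilter labels is not given in the sources used here. It gave the inflammatory label to 6994 of the 7323 cells (95.5%). The mean over mice was 93.6% ± 1.65 (SD, n = 4) at 3.5 dpi and 95.7% ± 1.87 (n = 3) at 5 dpi, and no time point had a mean outside 93.6 to 97.0% (permutation F test over 19 mice, p = 0.209, added after the data had been seen).

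The cells that lost the label were placed by the other methods with specific neighbours. At 2 dpi BBKNN called 24.3% ± 13.1 (SD, n = 3) of a mouse's inflammatory monocytes infiltrating monocytes, a label that Harmony does not use, and Scanorama did so for 20.2% ± 10.9. At 3.5 dpi BBKNN called 46.2% ± 16.03 (n = 4) Cx3cr1_hi M2 macrophages and at 5 dpi 59.5% ± 6.38 (n = 3). Scanorama called most of the cells patrolling monocytes, 65.1% ± 9.63 at 3.5 dpi and 67.3% ± 6.96 at 5 dpi. These were largely the same cells, since 1183 of the 1319 cells (89.7%) that BBKNN called Cx3cr1_hi M2 macrophages were patrolling monocytes for Scanorama. BBKNN placed 11.8% ± 1.39 (n = 3) with dendritic cells at 5 dpi, 23.5% ± 2.95 (n = 3) at 7 dpi and 18.4% ± 8.30 (n = 2) in uninjured mice.

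**Figure D3:**
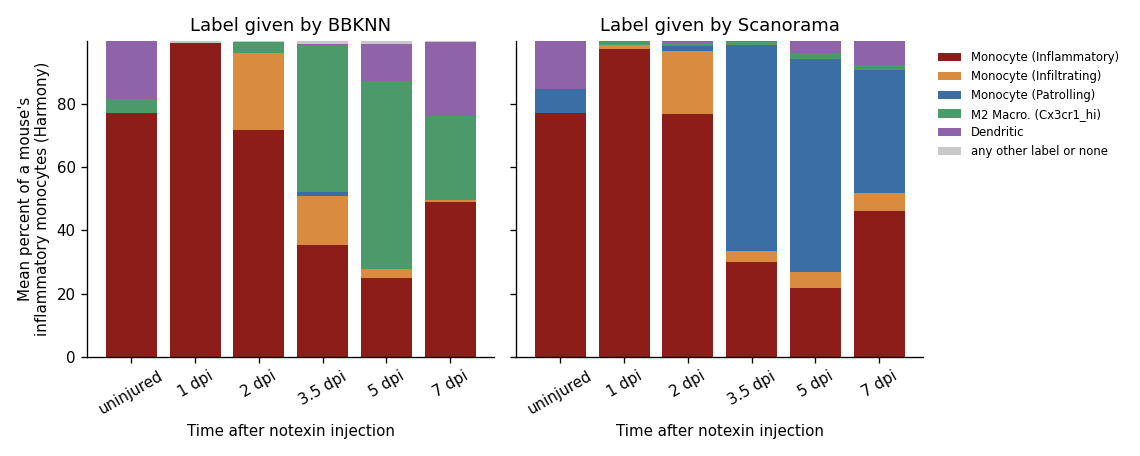
Mean percent of a mouse's Harmony inflammatory monocytes that received each label from BBKNN (left) and Scanorama (right), by time after notexin injection, in mice with at least 10 of the cells. Nearly all kept the inflammatory label at 1 dpi, whereas at 5 dpi 25.1% did under BBKNN and 21.8% under Scanorama.

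Cells that all 3 methods called inflammatory monocyte were 4754 and had a steeper course than the Harmony label. They were 0.435% ± 0.215 (SD, n = 4) of all cells in uninjured muscle and 18.03% ± 4.74 (n = 4) at 1 dpi. The later means were 8.22% ± 3.91 (n = 3), 2.32% ± 0.933 (n = 4), 0.892% ± 0.339 (n = 3) and 1.07% ± 0.923 (n = 3). The remaining Harmony inflammatory monocytes had another maximum. They were 0.533% ± 0.178 of all cells at 1 dpi, 3.56% ± 0.413 on the next day and 6.08% ± 1.93 at 3.5 dpi, followed by 3.54% ± 1.60 and 1.15% ± 0.332.

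**Figure D4:**
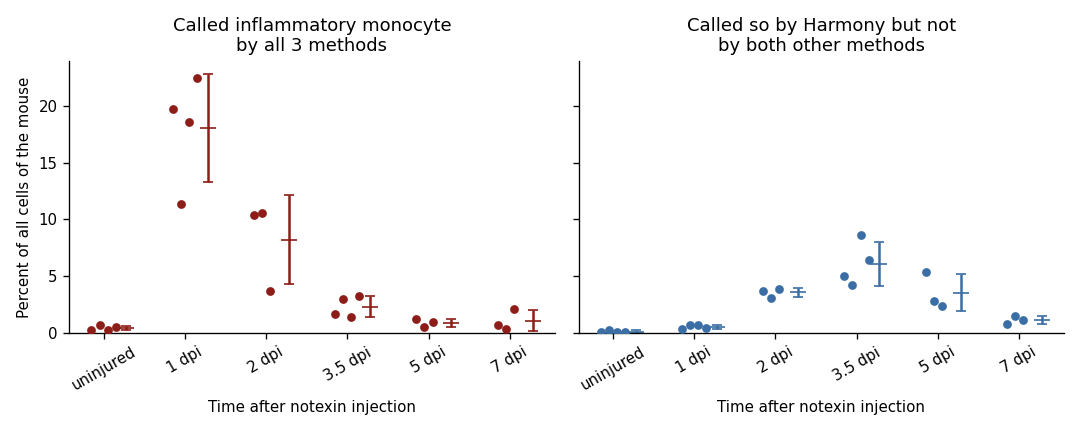
Percent of all cells of each mouse (points; mean and SD beside them) that all 3 methods called inflammatory monocyte (left) and that Harmony but not both other methods called so (right), by time after notexin injection. The first had its highest mean, 18.03%, at 1 dpi and the second, 6.08%, at 3.5 dpi.

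In the other direction, BBKNN and Scanorama used the label more widely at 1 dpi. BBKNN labelled 33.0% ± 9.17 (SD, n = 4) of all cells inflammatory monocyte then and Scanorama 41.4% ± 13.5, against 18.6% for Harmony. Of the 4423 cells BBKNN called so at 1 dpi, Harmony placed 2455 in the same type, 558 with Cx3cr1_hi and 382 with Cx3cr1_lo M2 macrophages, and 253 with Cxcl10+ monocytes. Of 5622 such cells for Scanorama, 2432 were in the same type, 1001 patrolling monocytes and 993 Cx3cr1_lo M2 macrophages. From 3.5 dpi on both methods gave lower mean shares than Harmony, 3.29% ± 0.987 (n = 4) for BBKNN and 3.12% ± 1.05 for Scanorama at 3.5 dpi. The share changed over time under either label (permutation F tests, adjusted p = 5.4e-05 for BBKNN and 0.00016 for Scanorama). The prefilter labels went the other way and called 14156 cells inflammatory monocyte, of which Harmony placed 3749 with Cx3cr1_hi M2 macrophages and 1607 with Cxcl10+ monocytes. Under these labels the mean share was 26.7% ± 6.29 (n = 4) at 1 dpi, still 21.5% ± 2.60 (n = 4) at 3.5 dpi, and 5.94% ± 2.45 (n = 3) in the last group (permutation F test, adjusted p = 7e-05).

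Per-cell measures were compared as medians over the inflammatory monocytes of each of the 19 mice with at least 10. Of 12 measures with a test, 4 changed over time, against 36% of all 278 tests over all types and measures. The 4 were the percents of UMIs from mitochondrial genes, ribosomal protein genes and protein-coding genes and the doublet score, the share of simulated doublets among a cell's nearest neighbours.

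Mitochondrial transcripts encode subunits of the respiratory chain, and a high percent is commonly used as a sign of damaged cells. The medians were 3.47%, 3.50%, 2.74% and 3.87% at 1 dpi and 5.00%, 4.61% and 4.78% at 2 dpi. Every 2 dpi mouse was above every 1 dpi mouse (exact permutation test, adjusted p = 0.333). They were 2.97 to 4.78% at 3.5 dpi, 3.54 to 4.69% at the time after it and 5.73 to 6.64% at the last. Uninjured B had 13.7% and uninjured C 7.11%. The change over time passed the permutation F test (adjusted p = 0.000463) and did so among injured mice only (adjusted p = 0.0071). It did not with a minimum of 5 cells, which adds uninjured A with 7.47% and uninjured D with 3.26% (adjusted p = 0.0725). Over all cells of the same mice the median was 16.6 to 18.4% in uninjured B and C and 6.72 to 7.62% at 7 dpi. The mean of these all-cell medians was 4.12% ± 1.29 (SD, n = 4) at 1 dpi and 5.48% ± 0.497 (n = 3) at 2 dpi. Among the other 22 types, 12 changed in mitochondrial percent.

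Ribosomal protein genes, which encode the protein part of the ribosome, took 11.1% ± 0.373 (SD, n = 4) of UMIs at 1 dpi and 10.8% ± 0.759 (n = 3) on the next day. The means that followed were 11.7% ± 0.936 (n = 4), 12.9% ± 0.658 (n = 3) and 13.4% ± 0.845 (n = 3). Uninjured B and C had 15.05% and 13.5%. Every mouse at 5 and 7 dpi was above every mouse at 1 and 2 dpi (permutation F test over the time points, adjusted p = 0.00655). Among the other 22 types, 11 changed in this measure.

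Protein-coding genes took the most at 1 dpi (94.1% ± 0.615, SD, n = 4) and 3.5 dpi (94.2% ± 0.287, n = 4), with 93.4% ± 0.276 (n = 3) between them at 2 dpi. At the last times they took 92.3% ± 0.886 (n = 3) and 92.1% ± 0.463 (n = 3) (permutation F test, adjusted p = 0.00406). Every mouse at 5 dpi was below every mouse at 3.5 dpi. This change was shared with 16 of the other 22 types.

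**Figure D5:**
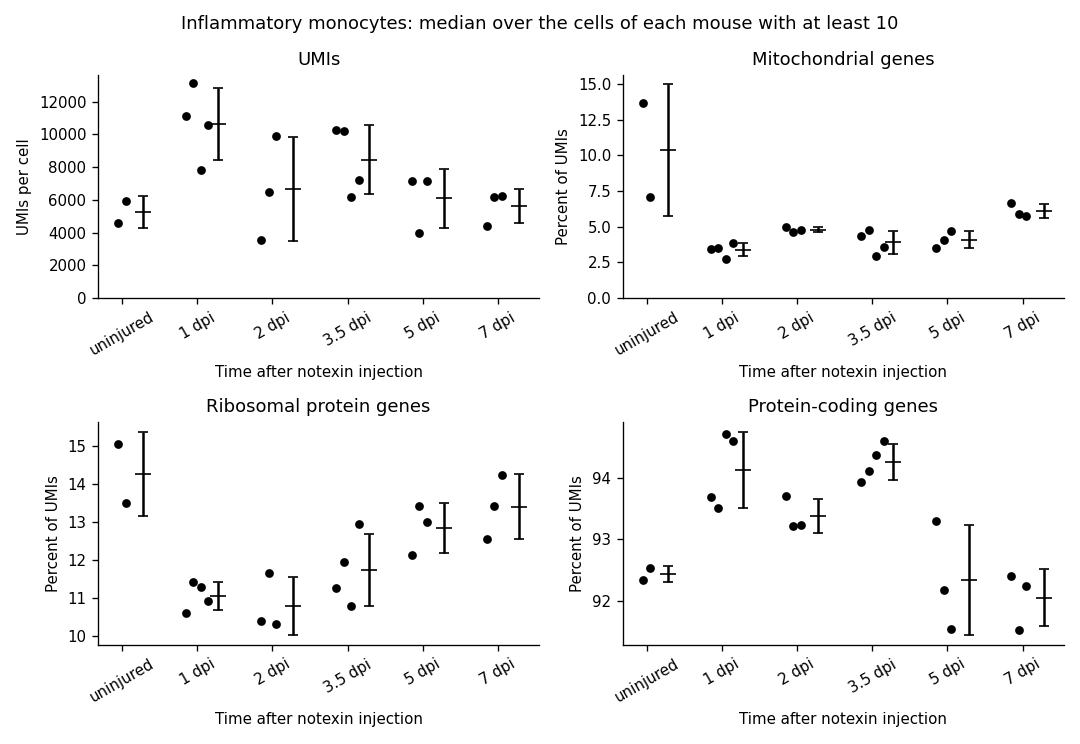
Median over the inflammatory monocytes of each mouse with at least 10 (points; mean and SD beside them) of UMIs per cell and of the percents of UMIs from mitochondrial, ribosomal protein and protein-coding genes, by time after notexin injection; the lower axes do not start at 0. Mitochondrial percent was 3.40% on average at 1 dpi and 6.08% at 7 dpi, and ribosomal protein percent 11.1% and 13.4%.

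The doublet score was 0.280 and 0.329 in uninjured C and B and 0.0968 to 0.233 in injured mice (permutation F test, adjusted p = 0.0375). This call rested on the uninjured mice: among injured mice only the adjusted p was 0.453, and leaving out any 1 of 11 mice ended the call (adjusted p 0.0516 to 0.438). In uninjured B the score of all cells had a median of 0.0929 and in uninjured C 0.217. Of the other 22 types, 8 changed in this score.

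UMIs per cell had medians from 3568 in mouse 2 dpi A to 13151 in mouse 1 dpi B, and did not pass the test (permutation F test, adjusted p = 0.13). These were also the mice with the lowest sequencing saturation of all (28.1%) and the highest among injured mice (83%). Genes per cell were 1497 to 3118 and did not pass either (adjusted p = 0.11), but at a fixed 5000 UMIs the highest mean was 1934 ± 7.83 (SD, n = 3) at 2 dpi, against 1845 ± 52.4 (n = 4) at 1 dpi and 1701 ± 109 (n = 2) in uninjured mice (permutation F test, adjusted p = 0.0086). The 3.5 dpi mice reached up to 1939, so these groups overlapped.

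Genes for transcription factors took 3.44% ± 0.0812 (SD, n = 4) of UMIs at 1 dpi and 3.97% ± 0.135 (n = 3) at 7 dpi (permutation F test, adjusted p = 0.102). In the cells that Harmony and BBKNN both called inflammatory the adjusted p was 0.0354. Heat shock protein genes, which encode chaperones, took 1.13% ± 0.401 (n = 2) in uninjured mice. They took 0.713% ± 0.0596 (n = 4) at 1 dpi and 0.788% ± 0.172 (n = 3) in the last group (permutation F test, adjusted p = 0.116). In the cells with both labels the adjusted p of this test was 0.0162. There uninjured B and C had 1.23% and 1.42%, and injured mice at most 0.984%. The percents of lincRNA, bidirectional promoter lncRNA (bplncRNA) and antisense genes did not pass (permutation F tests, adjusted p = 0.136, 0.233 and 0.948). The medians of snoRNA, miRNA and snRNA genes were 0 in nearly all mice and carry no information on time. None of the 60 exact permutation tests of a measure between neighbouring time points passed adjustment, and 4 had an unadjusted p under 0.05. These tests allow no p under 0.0286, none under 0.0667 from uninjured to 1 dpi and none under 0.1 in the last step. With adjustment over 60 tests hardly any difference could have passed, so the count says little on where a measure moved.

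Inflammatory monocytes were next compared with the 4 types most like them in the same mouse, as descriptions, because the labels were made from the expression of all genes. Ribosomal protein percent was higher in inflammatory monocytes than in patrolling monocytes in 17 of 17 mice (median difference 2.68 points), than in Cxcl10+ monocytes in 18 of 18 (2.33 points), than in Cx3cr1_lo M2 macrophages in 19 of 19 (2.16 points) and than in Cx3cr1_hi M2 macrophages in 14 of 18 (0.926 points). UMIs per cell were lower than in patrolling monocytes in 16 of 17 mice, with a median difference of -0.78 on the log2 scale. Mitochondrial percent was lower than in Cx3cr1_lo M2 macrophages in 18 of 19 mice (median difference -1.38 points, inflammatory minus the other type). Antisense percent was lower than in Cxcl10+ monocytes in all 18 mice.

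Whether these differences moved over time was tested, and 19 of 49 tests passed (38.8%). The labels of the other methods moved over time as well. On average BBKNN called 0.0287% of the cells Cx3cr1_hi M2 macrophages at 1 dpi and 46.2% at 3.5 dpi. Scanorama called 65.1% patrolling monocytes at 3.5 dpi. A moved difference therefore cannot be told apart from a moved border between the types. The UMI difference from Cx3cr1_hi M2 macrophages was 0.13 ± 0.17 (log2, SD, n = 4) at 1 dpi, with every mouse above 0, and -0.46 ± 0.05 (n = 4) at 3.5 dpi, ending at -0.51 ± 0.11 (n = 3) (permutation F test, adjusted p = 0.00735). From patrolling monocytes it was -0.36 ± 0.27 (n = 4) at 1 dpi, against -1.09 ± 0.08 (n = 4) at 3.5 dpi (permutation F test, adjusted p = 0.0127). The ribosomal protein difference from Cx3cr1_lo M2 macrophages was 3.05 ± 0.941 points (n = 4) at 1 dpi, 0.986 ± 0.804 (n = 3) a day later and 4.77 ± 0.618 (n = 3) in the last group (permutation F test, adjusted p = 0.0238). Transcription factor percent exceeded that of patrolling monocytes by 0.286 ± 0.466 points at 1 dpi and 1.04 ± 0.122 at 3.5 dpi (adjusted p = 0.0274).

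Within the type, cells that BBKNN named otherwise were set against those it also called inflammatory in the same mouse, again with no test. Cells it called infiltrating monocytes had more UMIs in 8 of 8 mice, by a median of 0.69 on the log2 scale, and a ribosomal protein percent of 9.13% against 12.4%, lower in 8 of 8. Their doublet score was higher in 7 of 8 mice (median 0.215 against 0.167), and the part of doublets in this label was not tested. Cells it called Cx3cr1_hi M2 macrophages had a lower ribosomal protein percent in 11 of 11 mice (11.7% against 12.8%) and a higher lincRNA percent in 10 of 11 (1.45% against 1.14%). Cells it called dendritic had a lower transcription factor percent in 6 of 6 mice (3.40% against 4.16%).

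Mice of the same time point varied together in some myeloid shares, all of which have the cells of the mouse as denominator. With the time point means removed, the inflammatory monocyte share of all cells went with the share of dendritic cells (Pearson's r = 0.727, adjusted permutation p = 0.021; Spearman's rho = 0.817, adjusted p = 0.00726; 21 mice) and of Cx3cr1_lo M2 macrophages (r = 0.788, adjusted permutation p = 0.0276; rho = 0.725, adjusted p = 0.0227). Without the 2 mice farthest from the median, 1 dpi B and 1 dpi D, r was 0.757 and 0.633. The other 4 types had r between 0.409 and 0.633 and did not pass by r (adjusted permutation p from 0.0727 to 0.158), while neutrophils passed by rho (0.649, adjusted p = 0.0341). As shares of myeloid cells neither relation passed the test. For dendritic cells r was -0.460 (adjusted permutation p = 0.505) and rho 0.112 (adjusted p = 0.855), and for Cx3cr1_lo M2 macrophages r was -0.572 (adjusted permutation p = 0.505) and rho -0.142 (adjusted p = 0.855). The negative r rested on uninjured C and D, the mice then farthest from the median, without which r was 0.135 and 0.379.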

How the data were processed

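The authors aligned reads to mm10 with Cell Ranger 3.1.0, removed ambient RNA with SoupX, filtered cells and clustered them in Seurat after integration with Harmony, BBKNN and Scanorama; the submitters' processing notes give Seurat 3.1.5. The integration also held cells of other studies, not used here. The authors deposited 1 table of cells per mouse. UMIs per cell are estimated counts, not whole after the ambient correction, gene set values and sequencing saturation are percents the authors deposited, and the doublet score and the ambient share are fractions they deposited. No gene-level values were analysed here.

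The members and lists were chosen with earlier results of these data known. Cells were taken by their Harmony label, and the mouse was the unit. Shares (arcsine square root) and medians were tested with a permutation F test (100000 resamples, smallest p 1e-05), and pairs of time points with exact two-sided permutation tests. Calls were made at 0.05 on p-values adjusted by Benjamini-Hochberg over all types, measures or contrasts. The p-value of the prefilter match was not adjusted, and some exact p-values are given unadjusted. Per-cell measures needed at least 10 cells in a mouse and 2 mice in a time point. Genes at 5000 UMIs came from a polynomial of degree 3. No genes were named as results, by rule, since none had values. The alternative edgeR 4.0.16 test (R 4.3.3) was run on numbers of cells. The permutation tests were tried on simulated shares only, not on medians, label matches or relations between types. Python 3.11.15, numpy 2.4.6 and pandas 2.3.3 were used.

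Shares rest on 974 to 10556 cells a mouse: the 0.309% of uninjured A had an exact 95% binomial interval of 0.124 to 0.635%, which covers counting error only. Doublets had been scored by the authors, the deposited cells are all called singlets, and no further cells were removed.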

Additional observations from a re-analysis of the deposited data

Results flagged for a closer look

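Cells without a Harmony label held further inflammatory monocytes by the other methods. BBKNN called 465 unlabelled cells inflammatory monocyte at 1 dpi and Scanorama 211, of which 182 were the same cells, against 0 and 1 in the uninjured mice. With the BBKNN cells added, the shares at 1 dpi would be 22.1%, 13.0%, 24.0% and 27.6%. At 2 dpi there were 61 and 31 such cells, and at 3.5 to 7 dpi at most 5 in a time point for either method. These cells were left out of the shares above.

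Among 30 groups of 4 mice examined for a single sample far from the others in a share, a label match or a median, none was found.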

How the results depend on the processing

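The change in share over time kept its side of the threshold under every alternative run, and the match with the other labels did so too. This does not cover the shape of the course, which differed between labels. Under the prefilter labels the mean share was 21.1% at 2 dpi and 21.5% at 3.5 dpi. From 5 to 7 dpi it went from 1.31% to 1.42% with BBKNN and from 1.19% to 1.44% with Scanorama. The count of the 9 contrasts called moved from 0 to 6 with edgeR and TMM and to 5 without TMM. For the share among myeloid cells, leaving only neutrophils beside the type in the denominator reversed the direction (adjusted p = 0.0171) and leaving only Cxcl10+ monocytes ended the call (0.0766). The number of myeloid shares related to that of the type went from 2 to 0 with shares of myeloid cells. It was 6 with log ratios to non-myeloid cells, a denominator that both sides of each relation then share. With shares of myeloid cells Pearson's r with Cx3cr1_lo M2 macrophages and with dendritic cells turned negative (adjusted permutation p = 0.505 each). Without uninjured C and D, r was 0.379 and 0.135, and rho for dendritic cells in all mice was 0.112. The bplncRNA percent turned direction with the mean over cells (adjusted p = 0.00356) and with the sum weighted by UMIs (0.00414), where its median was 0 in many mice. Causes were not tested.

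Leaving out 1 mouse at a time, the adjusted p was 4.6e-05 to 7.67e-05 for the share over time and 0.000332 to 0.00548 among myeloid cells. The measures called were 3 to 5, the differences from like types 15 to 26 and the label matches 2 throughout. Contrasts between 2 time points stayed at 0, but their exact tests allow no p under 0.0286 before adjustment, so this says little on stability. The doublet score lost its call without uninjured B or C, 1 dpi A or C, 3.5 dpi A, B or D, 5 dpi A, or any 7 dpi mouse (adjusted p 0.0516 to 0.438), and genes per cell gained one without 2 dpi A (0.0376) or 2 dpi C (0.0492).

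No source used here ties replicate letters to a shared day or batch, although mice of several time points were collected on 1 day; deviations of same-letter mice had a median correlation of -0.02 over 48 pairs. With the replicate block the adjusted p of the permutation F test was 5.75e-05 for the share over time and 0.000957 among myeloid cells. Here 2 label matches were called, and the measures called were 3, the doublet score being lost (0.103). That 0 contrasts were called carries no information, since sign flips of at most 4 same-letter pairs cannot give a p under 0.05. The uninjured mice, with 6 to 33 inflammatory monocytes, limit every statement on the resting state. P-values for shares rest on 3 or 4 mice a time point, and those for per-cell measures and label matches on 2 in the uninjured group.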
